A study of Xenopus laevis with 96 samples.

Results

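The hox genes of groups 2 and 3 were examined in whole gastrula embryos of the frog Xenopus laevis after a transient rise or fall of retinoic acid (RA). The members were found by symbol in the deposited table of log2 values, which held 16322 genes. The rule took all hoxa, hoxb and hoxd genes of group 2 or 3 on the L or the S subgenome. Of the 31430 genes in the count table, those absent from the log2 table carried no symbol. Further genes of these groups among them could therefore not be found. In all, 3 genes met the rule. They were hoxa2.S (Xelaev18033068m.g), hoxa3.S (Xelaev18033069m.g) and hoxd3.L (Xelaev18044736m.g). X. laevis is an allotetraploid with an L and an S copy of many genes, and for each of the 3 members only the copy named here carried a symbol, so that the other copies were not analysed here.

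The embryos came from 6 clutches, A to F, each laid by a single female, and every clutch was divided over all groups. Embryos were kept for 2 h from late blastula (stage 9.5) to early gastrula (stage 10.25) in 10 nM RA, in 50 µM DEAB, an inhibitor of the retinaldehyde dehydrogenases that make RA, in 0.5% ethanol, or in medium as controls, and were then washed. RNA of 5 to 10 pooled embryos was sequenced at 0, 1.5, 3 and 4.5 h after the wash. A clutch thus gave a library for every group at every time, 96 in all. Clutches were sequenced only if genes that included cyp26a1.L and hoxb4.S, measured by qPCR, were higher with RA and lower with DEAB, so that counts of clutches below describe clutches selected for a response. The RA and DEAB stocks were in DMSO, and the sources do not say whether control embryos received the solvent. No strain, transgene or genetic change was named for any group.

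Hox genes encode homeodomain transcription factors and lie in clusters, in which the genes at the 3′ end are switched on earliest and most anteriorly along the body axis. In vertebrates the genes of groups 1 to 4 pattern the hindbrain and the neural crest that leaves it. Several of them are direct targets of the RA receptors, and RA made in the trunk mesoderm is one of the signals that set their anterior limits. Hoxa2 is known in the mouse and in Xenopus as the gene that specifies the second pharyngeal arch, Hoxa3 in the mouse for its part in the thymus, the parathyroid and the third arch, and Hoxd3 in the mouse for its part in the cervical vertebrae.

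Total counts per library ranged from 5528562 to 15869722 with a median of 11691900, and the lowest total was in clutch D, in the 4.5 h control. Of 24 marker genes of the germ layers of a gastrula, all but myf5.L had counts in each of the 96 libraries. Levels are given as CPM, the share of a library's counts scaled to the usual common total, on library sizes adjusted by TMM. Because whole embryos were sequenced, fewer cells that express a gene and less RNA per cell cannot be told apart. Stage labels differed between clutches, as clutch A was labelled stage 11.5 at 1.5 h and the others stage 11, and clutches B and C were labelled stages 11.5 and 12 at 3 and 4.5 h and the others stages 12 and 12.5.

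The members were scarce transcripts at the start of the series. Over all 96 libraries hoxa2.S had 3907 counts, hoxd3.L 1898 and hoxa3.S 1119. hoxa2.S had at least 1 count in each library, and at 0 h 11 of 24 libraries held 10 counts or more, 5 of them among the 6 RA libraries. hoxa3.S was listed at 0 counts in 4 of 24 libraries at 0 h, which allows up to 0.246 CPM in the shallowest of them, and hoxd3.L in 10 of 24, with the same upper limit. At 1.5 h the libraries at 0 counts were 3 and 5 of 24, and from 3 h on there were none. For this reason hoxa3.S and hoxd3.L did not pass the filter on low counts at 0 and 1.5 h, and only hoxa2.S was tested between treatments at those times in the edgeR fits with this filter. These limits cover counting error only.

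In control embryos all 3 genes rose through gastrulation, and hoxa2.S was the furthest along at 3 h. The control level of hoxa2.S at 0, 1.5, 3 and 4.5 h was 0.628 ± 0.389, 2.09 ± 0.849, 4.51 ± 1.34 and 7.84 ± 2.29 CPM (SD, n = 6). The level of hoxa3.S was 0.0773 ± 0.0483, 0.258 ± 0.205, 0.938 ± 0.723 and 3.27 ± 1.62 CPM at the same times. That of hoxd3.L was 0.0682 ± 0.104, 0.20 ± 0.136, 1.51 ± 1.21 and 6.84 ± 3.63 CPM. Expressed relative to the control mean of the same gene at 4.5 h, hoxa2.S had reached 26.7% at 1.5 h and 57.5% at 3 h, hoxa3.S 7.89% and 28.7%, and hoxd3.L 2.92% and 22.1%. Within clutches the 3 h level was a larger share of the 4.5 h level for hoxa2.S than for the other two genes in 6 of 6 clutches, and larger for hoxa3.S than for hoxd3.L in 4 of 6, clutches A and F being the exceptions. No test of this order was made.

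The rise between 0 and 4.5 h passed the threshold for 3 of 3 members with edgeR, while 39.6% of the 20295 genes tested rose in that comparison. It was 3.70 ± 0.21 on the log2 scale (SE, adjusted p = 1.02e-12) for hoxa2.S, 5.21 ± 0.44 (adjusted p = 2.99e-10) for hoxa3.S and 6.56 ± 0.41 (adjusted p = 2.07e-12) for hoxd3.L. The step from 0 to 1.5 h was called for 1 of the 3 members, against 23.8% of all genes, with a log2 fold change of 1.73 ± 0.24 for hoxa2.S (edgeR, adjusted p = 5.68e-06). For hoxa3.S and hoxd3.L this step was 1.39 ± 0.67 and 1.41 ± 0.69 with edgeR-adjusted p = 0.0675 and 0.0701, and it was called for hoxa3.S without clutch C (log2 fold change 1.77) and for hoxd3.L without clutch F (2.13). The steps from 1.5 to 3 h and from 3 to 4.5 h were called for all 3 members, against 23.8% and 21.9% of all genes. From 3 to 4.5 h the log2 fold changes were 0.84 ± 0.18 for hoxa2.S, 1.90 ± 0.32 for hoxa3.S and 2.35 ± 0.27 for hoxd3.L.

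**Figure D1:**
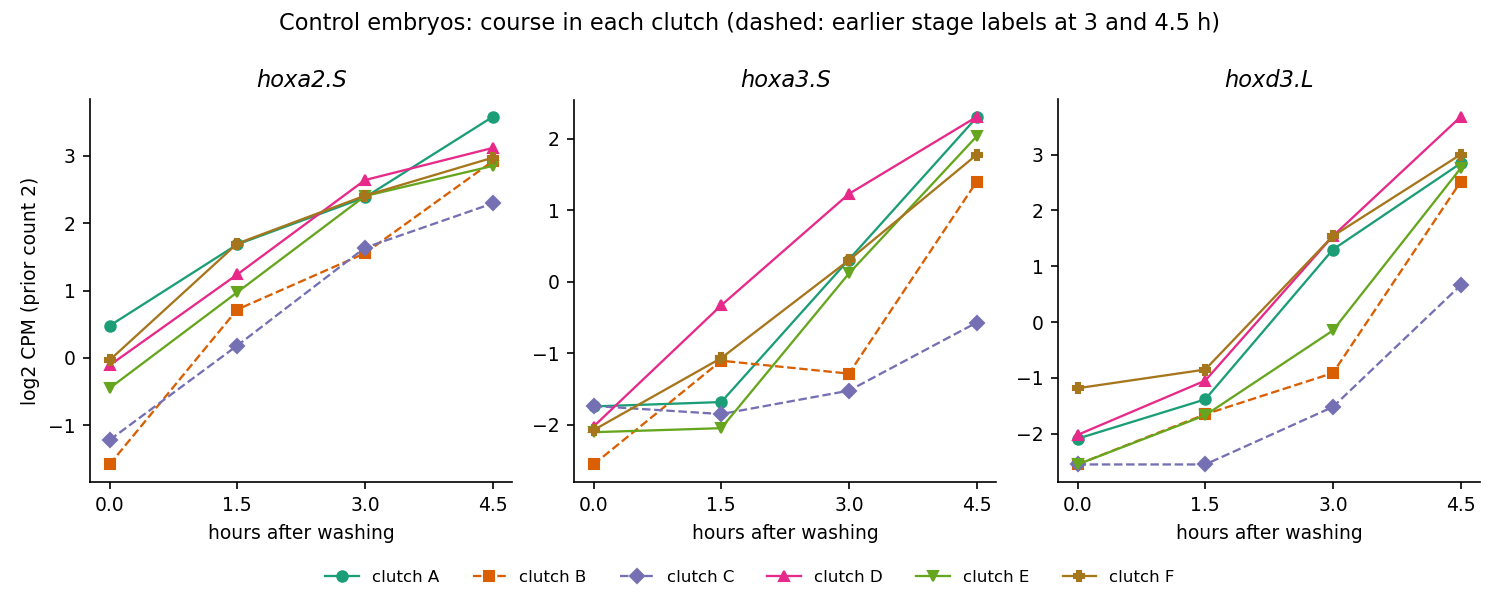
Level of each gene in the control libraries of clutches A to F as log2 CPM with a prior count of 2 (y axis, a scale of its own in each panel) against hours after washing (x axis), with a line for each clutch, dashed for clutches B and C. hoxa2.S climbed at every step in 6 of 6 clutches, whereas hoxa3.S and hoxd3.L stayed low until 1.5 h, and the control library of clutch C at 4.5 h was the lowest of its group for each gene.

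The 2 clutches with earlier stage labels had the lower control levels. At 3 h the control libraries of clutches B and C held 2.76 and 2.93 CPM of hoxa2.S, and the other 4 held 5.04 to 6.05 CPM. For hoxa3.S the ranges were 0.178 to 0.24 CPM in clutches B and C and 0.912 to 2.17 CPM in the others, and for hoxd3.L 0.178 to 0.36 and 0.73 to 2.74 CPM. The ranges of the 2 sets of clutches did not overlap for any of the 3 genes at 3 h. At 4.5 h they did not overlap for hoxa3.S (0.503 to 2.46 against 3.25 to 4.76 CPM) and hoxd3.L (1.41 to 5.54 against 6.58 to 12.6 CPM), and overlapped for hoxa2.S (4.72 to 7.38 against 7.03 to 11.7 CPM). Stage label and clutch cannot be told apart here, and no test was made of these ranges. The share of all genes whose ranges separated in this way was not counted, so the separation cannot be called particular to these genes.

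The control library of clutch C at 4.5 h stood apart. It held 5 counts of hoxa3.S (0.503 CPM), and the next control library held 2.46 CPM, while the RA, DEAB and ethanol libraries of the same clutch and time held 2.96, 1.06 and 2.40 CPM. For hoxd3.L it held 1.41 CPM against 2.84, 2.56 and 3.86 CPM in the other 3 libraries of the clutch. Differences from control are therefore also given without clutch C for some of the comparisons below.

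RA raised hoxa2.S at the end of the treatment and 1.5 h later. At 0 h the RA libraries held from 0.55 to 3.58 CPM with a median of 2.08, and the control libraries from 0.164 to 1.22 CPM with a median of 0.659. The ranges overlapped because the levels of the clutches differed, and within each clutch the RA library was the higher, in 6 of 6 clutches. The log2 fold change was 1.57 ± 0.27 (edgeR, adjusted p = 0.0128), and 0.31% of the 19376 genes tested were called higher. At 0 h hoxa2.S passed the filter on low counts mainly through the RA group, with 10 counts or more in 5 RA, 3 control and 1 DEAB libraries, so that its being tested depended on the group where it was high. With no filter, where all 3 members were tested at 0 h, its log2 fold change was 1.57 and it was again called (edgeR, adjusted p = 0.000585), while hoxa3.S and hoxd3.L were not (adjusted p = 0.23 and 0.768). At 1.5 h RA libraries held 1.98, 5.00 and 8.62 CPM as lowest, median and highest value, and control libraries 0.965, 1.99 and 3.07 CPM. RA was again higher in 6 of 6 clutches, with a log2 fold change of 1.21 ± 0.21 (edgeR, adjusted p = 0.00651), where 0.548% of 19543 genes were called higher. The smallest of the 6 differences within clutches was 0.35 on the log2 scale at 0 h, in clutch E, and 0.11 at 1.5 h, in clutch A.

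These calls depended on single clutches. At 0 h the adjusted p of hoxa2.S was 0.0923 without clutch D and 0.0589 without clutch F, with log2 fold changes of 1.39 and 1.54. At 1.5 h it was 0.0869 without clutch F, with a log2 fold change of 1.13. Leaving out each clutch in turn gave log2 fold changes at 1.5 h from 1.01 to 1.48. limma on the deposited log2 values gave adjusted p = 0.0575 at 0 h and 0.0555 at 1.5 h, and DESeq2 called the gene at 1.5 h and gave no adjusted p at 0 h. At these times the deposited log2 values also held hoxa3.S and hoxd3.L, and limma called neither for RA against control (adjusted p from 0.245 to 0.562).

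At the later times hoxa2.S was not called against control. At 3 h the RA libraries held 2.47, 6.75 and 11.4 CPM as lowest, median and highest value, and the control libraries 2.76, 5.08 and 6.05 CPM. The log2 fold change was 0.61 ± 0.20 (edgeR, adjusted p = 0.441), with RA the higher in 5 of 6 clutches, and 0.33 without clutch C, whose RA library was the highest of the group. At 4.5 h the RA libraries lay between 7.72 and 10.1 CPM with a median of 8.90, inside the control range of 4.72 to 11.7 CPM with its median of 7.52. The log2 fold change was 0.19 ± 0.15 (edgeR, adjusted p = 0.828) and 0.04 without clutch C. In RA against control at 3 and 4.5 h edgeR called 0 of 3 members, DESeq2 0 of 3 and limma on the deposited log2 values 0 of 3, with an unadjusted p under 0.05 for 1 member (hoxa2.S) at 3 h and 0 at 4.5 h. Of all genes, 0.16% were called in either direction at 3 h and 0% at 4.5 h.

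hoxa2.S was lower in DEAB than in the same control libraries, with a call only at the last time point. At 0 h the DEAB libraries held 0.064, 0.228 and 0.757 CPM as lowest, median and highest value, from 1 to 12 counts, and were below control in 5 of 6 clutches. At 1.5 h they held 0.797, 1.16 and 1.84 CPM, again below control in 5 of 6 clutches. In both cases the exception was clutch C. The log2 fold changes were -1.09 ± 0.39 (edgeR, adjusted p = 0.104) and -0.80 ± 0.26 (adjusted p = 0.554), where 2.37% and 0% of all genes were called. At 0 and 1.5 h edgeR therefore called 0 of the 1 member tested, with an unadjusted p under 0.05 at both times, limma called 0 of 3, and DESeq2 called 0 at 1.5 h and gave no adjusted p at 0 h. Without clutch C, the exception, the value at 0 h became -1.31 and was called (edgeR, adjusted p = 0.0416). Leaving out the clutch that went the other way favours such a call. Of the 6 fits with 1 clutch left out it was the only 1 called, and edgeR-adjusted p reached 0.35 in the others.

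At 3 h the 6 DEAB libraries lay close together, between 2.27 and 2.97 CPM of hoxa2.S with a median of 2.57, while control libraries spread from 2.76 to 6.05 CPM. Every clutch was lower in DEAB, but the log2 fold change of -0.76 ± 0.23 was not called (edgeR, adjusted p = 0.297), as was the case for all 3 members with edgeR, DESeq2 and limma, with an unadjusted p under 0.05 for hoxa2.S alone and 0.0361% of all genes called. Leaving out each clutch in turn gave hoxa2.S log2 fold changes from -0.87 to -0.69, none of them called (edgeR, adjusted p from 0.0578 to 0.855). At 4.5 h DEAB libraries held 3.39, 4.19 and 5.60 CPM as lowest, median and highest value, against 4.72, 7.52 and 11.7 CPM in control, and were lower in 6 of 6 clutches. hoxa2.S was then the 1 member of 3 called lower, with a log2 fold change of -0.85 ± 0.16 (edgeR, adjusted p = 0.0253), where 0.253% of the 19750 genes tested were called lower. The call was lost on leaving out clutch A, B, D, E or F in turn, with adjusted p from 0.0611 to 0.163 and log2 fold changes from -0.90 to -0.77, and it was kept without clutch C (-0.96, adjusted p = 0.0021). DESeq2 called it as well, and limma on the deposited log2 values did not (adjusted p = 0.116).

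**Figure D2:**
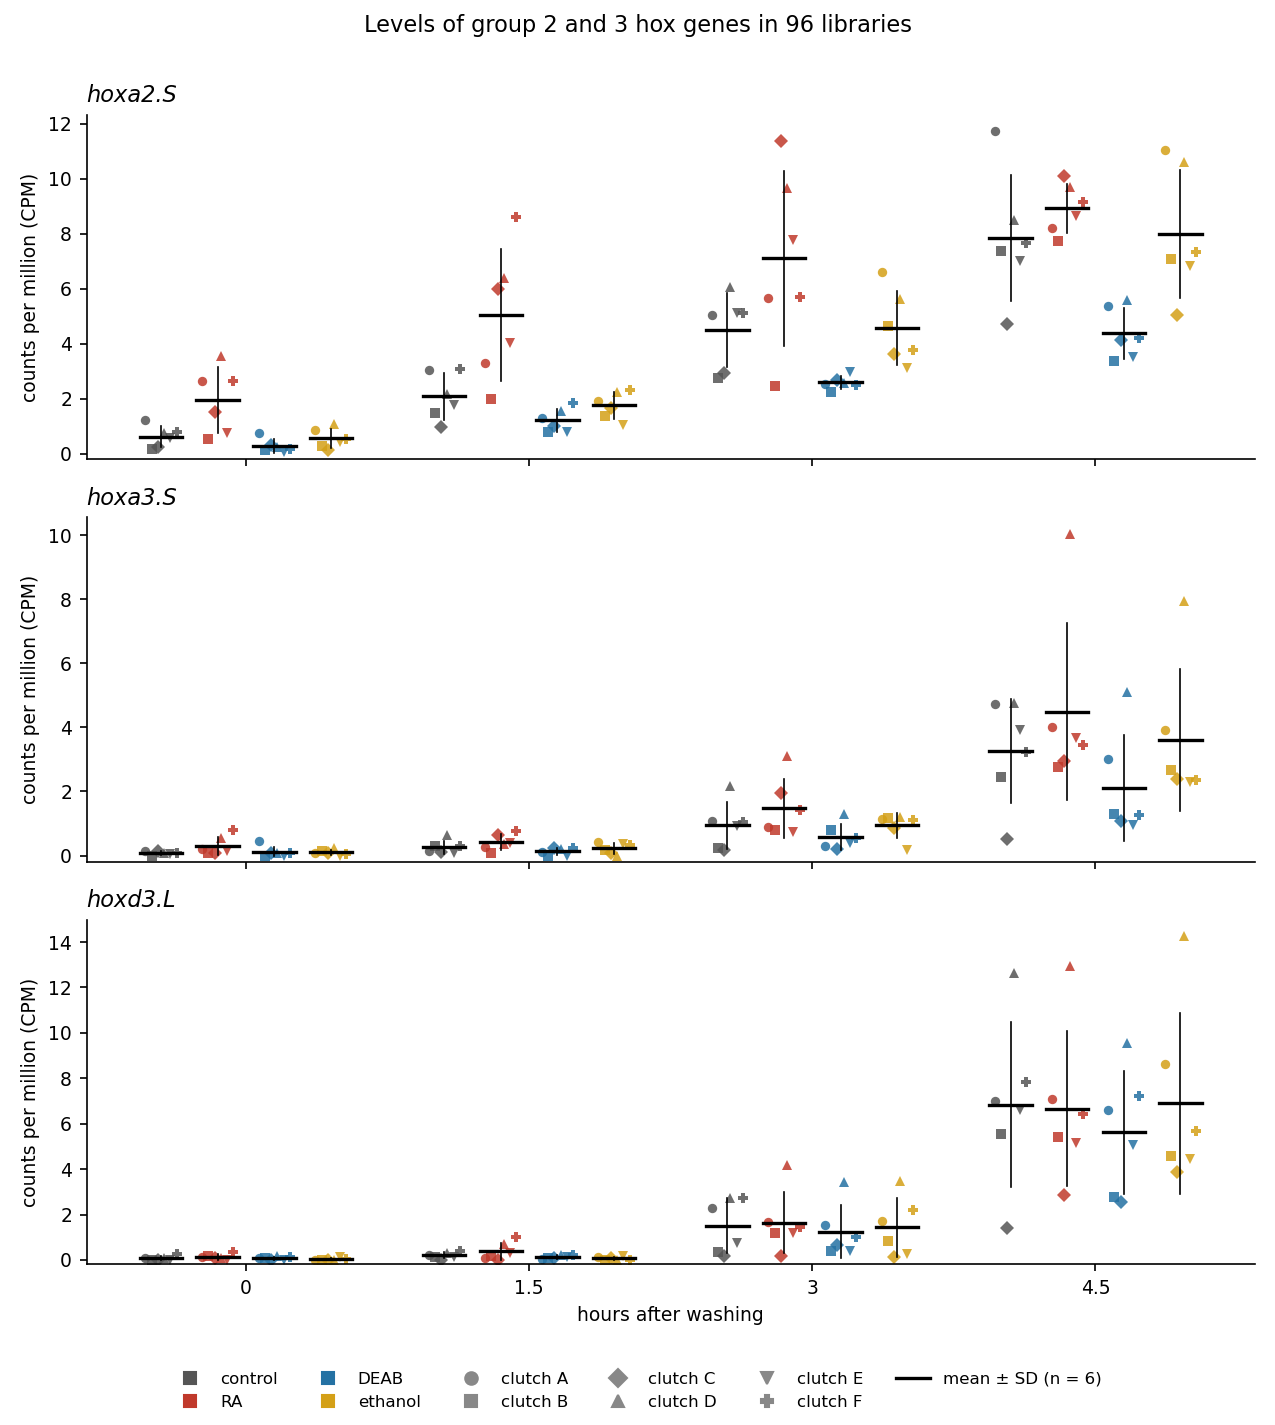
Levels of hoxa2.S, hoxa3.S and hoxd3.L in CPM (y axis, from just below 0, with a scale of its own for each gene) at 4 times after washing (x axis) in control, RA, DEAB and ethanol embryos. Each marker is 1 library, its shape gives the clutch, and horizontal and vertical lines give the mean and the SD of 6 clutches, with the lower end of the SD stopped at 0. hoxa2.S in RA was above DEAB with no overlap at 1.5 and 4.5 h, and hoxd3.L had similar ranges in all groups at 4.5 h.

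The largest contrast was between the opposite treatments, RA against DEAB, which shares its libraries with the comparisons against control. At 0 h hoxa2.S stood at 1.95 ± 1.20 CPM in RA and 0.293 ± 0.245 CPM in DEAB (SD, n = 6), and the ranges met only because RA of clutch B (0.55 CPM) was below DEAB of clutch A (0.757 CPM). The means were 5.05 ± 2.41 and 1.22 ± 0.42 CPM at 1.5 h, 7.11 ± 3.19 and 2.60 ± 0.23 CPM at 3 h, and 8.93 ± 0.90 and 4.38 ± 0.92 CPM at 4.5 h. The groups did not overlap at 1.5 and 4.5 h, and at 3 h they overlapped through the RA library of clutch B alone, at 2.47 CPM. The share of all genes without overlap between RA and DEAB was not counted. The RA library was the higher in 6 of 6 clutches at each of the 4 times.

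The log2 fold change of hoxa2.S between RA and DEAB was 2.66 ± 0.32 and 2.01 ± 0.23 at the earlier times (edgeR, adjusted p = 0.000137 and 2e-05) and 1.37 ± 0.22 and 1.05 ± 0.16 at the later times (adjusted p = 0.00186 and 0.00164). Among all genes, 0.439%, 0.982%, 0.887% and 0.724% were called higher at these times. These 4 calls were kept on leaving out any single clutch, with DESeq2 and with limma on the deposited log2 values, and were lost in a fit without the clutch as a block (adjusted p from 0.053 to 0.317). Of the members tested, 1 of 1, 1 of 1, 1 of 3 and 2 of 3 were called higher at 0, 1.5, 3 and 4.5 h. At 0 h hoxa2.S passed the filter on low counts mainly through the RA group, so its being tested depended on the group where it was high. With no filter edgeR again called 1 member at 0 h and 1 at 1.5 h. The median log2 fold change of the 3 members at 4.5 h was 1.05, beside -0.01 over all genes.

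The second member called at 4.5 h was hoxa3.S. At that time RA libraries held 2.77, 3.57 and 10.1 CPM as lowest, median and highest value, DEAB libraries 0.947, 1.27 and 5.09 CPM and control libraries 0.503, 3.58 and 4.76 CPM. Clutch D was the highest in each of the 4 groups, and RA and DEAB overlapped across clutches while RA was the higher in 6 of 6 clutches. The log2 fold change between RA and DEAB was 1.14 ± 0.26 (edgeR, adjusted p = 0.0461). It lost its call without clutch B, D, E or F, with adjusted p from 0.123 to 0.18 and log2 fold changes from 1.02 to 1.20, and kept it without clutch A or C (adjusted p = 0.0418 and 0.0311). limma on the deposited log2 values did not call it (adjusted p = 0.177).

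At 3 h hoxa3.S held 0.733, 1.16 and 3.10 CPM in RA and 0.193, 0.474 and 1.29 CPM in DEAB as lowest, median and highest value. RA was the higher in 6 of 6 clutches, although by only 0.003 on the log2 scale in clutch B, and the log2 fold change of 1.32 ± 0.40 missed the threshold (edgeR, adjusted p = 0.176). Against control hoxa3.S was not called at either time. The log2 fold changes were 0.64 ± 0.36 and 0.37 ± 0.25 for RA at 3 and 4.5 h (edgeR, adjusted p = 0.773 and 0.796) and -0.69 ± 0.43 and -0.77 ± 0.27 for DEAB (adjusted p = 0.609 and 0.297). Without clutch C, whose control libraries held little hoxa3.S, the RA values were 0.27 and 0.17, and the DEAB value at 4.5 h was -0.91 (adjusted p = 0.0664).

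hoxd3.L was not called in any of the comparisons of treatments made with edgeR, DESeq2 or limma. At 4.5 h its lowest, median and highest level was 1.41, 6.80 and 12.6 CPM in control, 2.84, 5.93 and 12.96 CPM in RA, 2.56, 5.83 and 9.55 CPM in DEAB and 3.86, 5.13 and 14.3 CPM in ethanol. The 4 groups covered nearly the same range, with clutch D the highest and clutch C the lowest in each. Within clutches DEAB was below control in 5 of 6, clutch C being the exception. RA was above DEAB in 5 of 6 and above control in 3 of 6. The log2 fold changes at 4.5 h were -0.03 ± 0.16 for RA against control, -0.26 ± 0.16 for DEAB against control and 0.23 ± 0.16 for RA against DEAB (edgeR, adjusted p = 0.989, 0.591 and 0.852). At 3 h, with counts from 2 to 35, they were 0.08 ± 0.32, -0.35 ± 0.34 and 0.43 ± 0.34 (adjusted p = 0.986, 0.763 and 0.921). Without clutch C the differences from control were -0.12 for RA and -0.36 for DEAB at 4.5 h and 0.08 and -0.52 at 3 h (adjusted p from 0.232 to 0.994). With these errors a difference at 3 h of the size of the hoxa2.S values, 0.61 for RA and -0.76 for DEAB, could be neither shown nor dismissed.

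**Figure D3:**
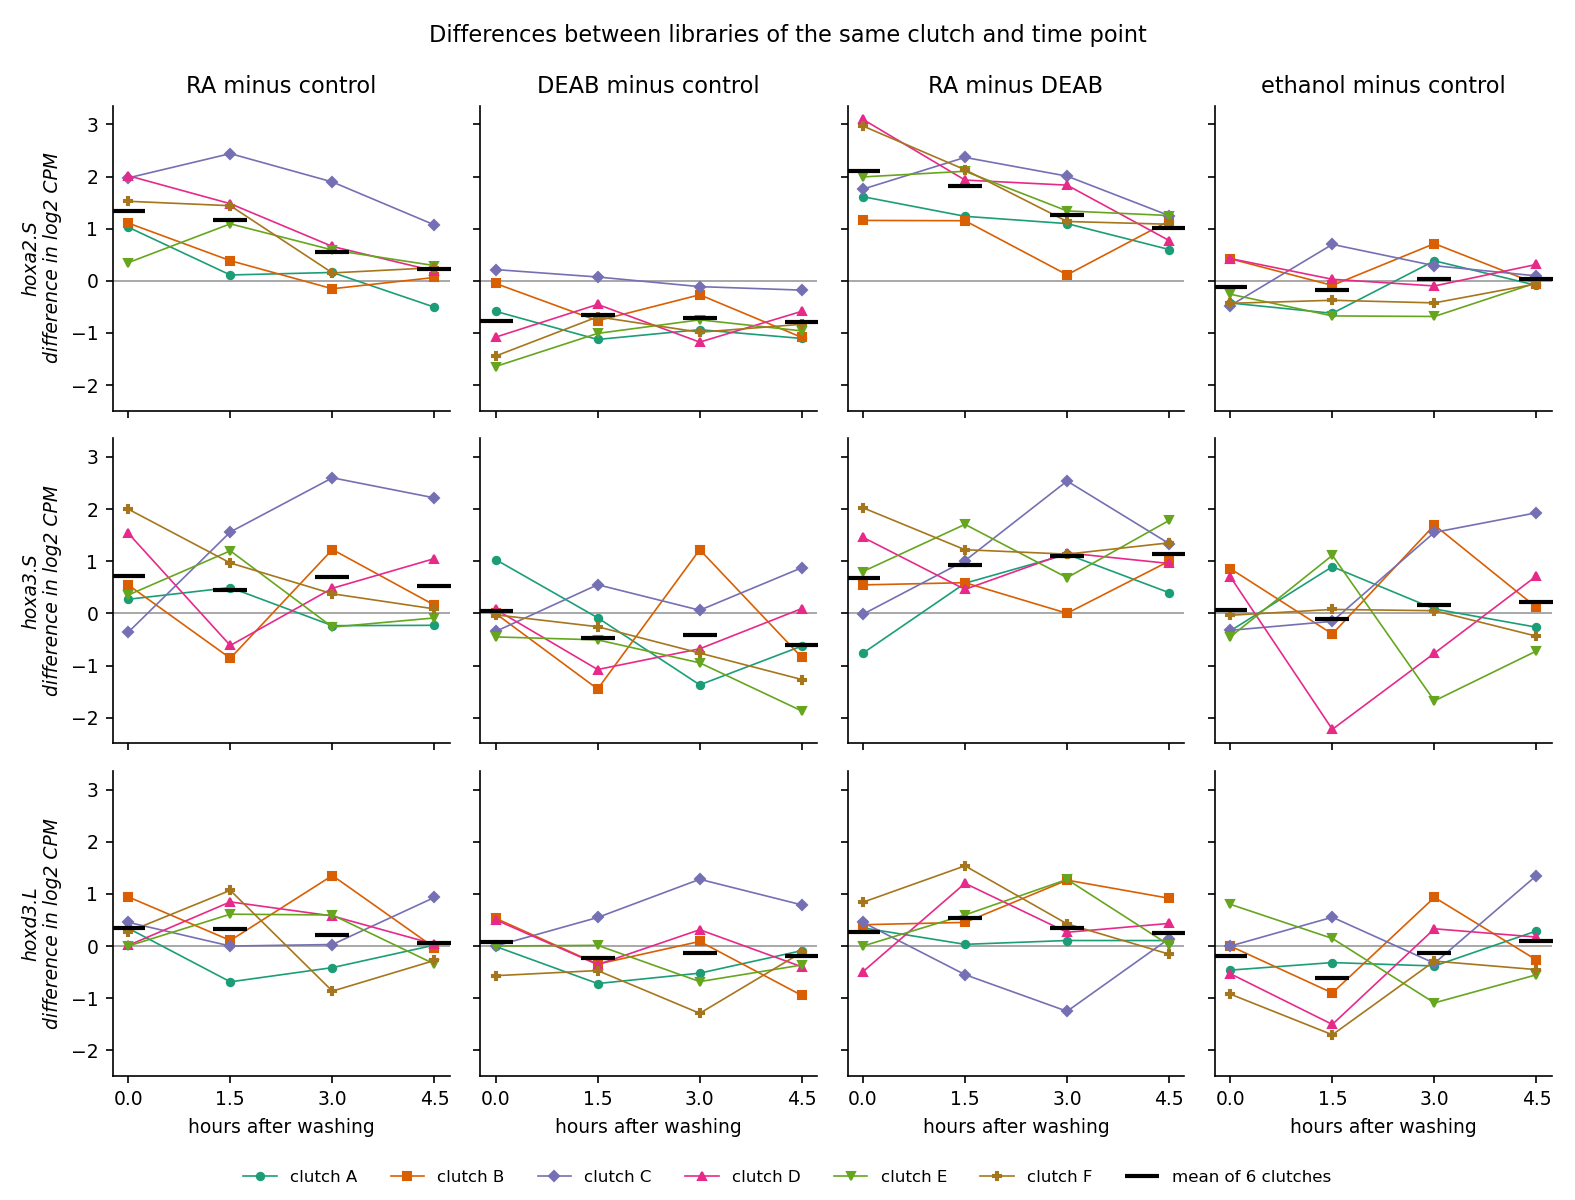
Differences in log2 CPM (y axis, prior count 2) between 2 libraries that share clutch and time against hours after washing (x axis), for 3 genes in rows and 4 pairs of groups in columns. Each line is 1 clutch and the black bars are means of 6 clutches. For hoxa2.S the mean RA minus control difference fell from 1.33 at 0 h to 0.23 at 4.5 h, and RA minus DEAB was above 0 in every clutch at every time.

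At 4.5 h 24 of 24 libraries held 10 counts or more of hoxa2.S and of hoxd3.L, and 23 of 24 of hoxa3.S. The counts of hoxa3.S were still low in DEAB, with a median of 13. At this time the size of the response was compared between the members within each clutch. The difference in log2 CPM between RA and DEAB was 1.02 for hoxa2.S, 1.14 for hoxa3.S and 0.24 for hoxd3.L as a mean over 6 clutches. It exceeded that of hoxd3.L by 0.77 ± 0.47 for hoxa2.S (SD, n = 6, larger in 6 of 6 clutches, p = 0.0312 in an exact 2-sided sign-flip test) and by 0.90 ± 0.69 for hoxa3.S (6 of 6 clutches, exact p = 0.0312). The fall with DEAB against control was the larger for hoxa2.S than for hoxd3.L by 0.60 ± 0.38, in 6 of 6 clutches (n = 6, exact p = 0.0312). hoxa2.S and hoxa3.S differed by -0.12 ± 0.27 in RA against DEAB (n = 6, exact p = 0.344). With 6 clutches 0.0312 is the smallest p this test can give, the p-values are unadjusted, and these 4 comparisons were chosen after the values were seen, out of 18 computed at 3 and 4.5 h. In the other 14 p ranged from 0.0938 upwards.

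At 3 and 4.5 h the 3 genes were not called between ethanol and control. At 4.5 h the ethanol means were 7.996 ± 2.33 CPM for hoxa2.S, 3.6 ± 2.21 for hoxa3.S and 6.90 ± 3.98 for hoxd3.L, which are 102%, 110.1% and 101% of the control means. The log2 fold changes were 0.02 ± 0.11, 0.06 ± 0.26 and 0.00 ± 0.19 (edgeR, adjusted p = 0.999, 0.988 and 0.999). At 3 h they were 0.02 ± 0.19, 0.05 ± 0.43 and -0.13 ± 0.28, and at 1.5 h hoxa2.S was at -0.25 ± 0.22 (adjusted p = 0.78). edgeR and DESeq2 called 0 members at these 3 times, with 0 unadjusted p under 0.05, where 0.065%, 0% and 0.00531% of all genes were called at 1.5, 3 and 4.5 h, and at 0 h none of the members passed the filter on low counts. At 1.5 h hoxa3.S and hoxd3.L did not pass it either, and hoxd3.L, with at most 5 counts in a library, stood at 0.0655 CPM in ethanol and 0.20 CPM in control. Taken as the reference in place of control, the ethanol libraries gave hoxa2.S a log2 fold change of 1.77 for RA at 0 h and 1.46 at 1.5 h and -0.88 for DEAB at 4.5 h, each again called by edgeR. Ethanol cannot be taken as equal to control at 0 h. In ethanol against control, hoxd1.L was then at -0.68 ± 0.27 and hoxd1.S at -0.79 ± 0.22 (edgeR, adjusted p = 0.164 and 0.0672). Of 16 tested genes of RA metabolism and reception edgeR called 2 lower and 0 higher, with a median of -0.131, beside -0.0015 over all genes.

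The RA difference of hoxa2.S from control was smaller at each later time, but this change was not called. In a fit of 72 libraries the change between 0 and 4.5 h was -1.38 ± 0.35 on the log2 scale for RA against control (edgeR, adjusted p = 0.12), -1.6 ± 0.42 for RA against DEAB (adjusted p = 0.183) and 0.22 ± 0.49 for DEAB against control (adjusted p = 0.898). Over the 9 such changes edgeR called 0 of 3 members, with an unadjusted p under 0.05 for hoxa2.S in 4 of them, and no other tool was run. Among 22092 genes, 0% were called from 0 to 1.5 h in each comparison. For RA against control, DEAB against control and RA against DEAB, 0.00453%, 0.0453% and 0.0272% were called from 0 to 3 h and 0.0679%, 0.367% and 0.0951% from 0 to 4.5 h. Without clutch C the changes of hoxa2.S from 0 to 4.5 h were -1.42 for RA against control and -1.74 for RA against DEAB, and both were called (edgeR, adjusted p = 0.0346 and 0.0213). Of the 6 fits with 1 clutch left out, this was the only 1 with a call for either change. In the others the edgeR-adjusted p reached 0.541 for RA against control and 0.973 for RA against DEAB.

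Ordered by mean level over the 16 combinations of group and time, hoxa2.S ran from 0.293 CPM in DEAB at 0 h to 8.93 CPM in RA at 4.5 h. RA embryos at 1.5 h (5.05 CPM) lay above control embryos at 3 h (4.51 CPM), and DEAB embryos at 4.5 h (4.38 CPM) lay just below the latter. Of the 15 neighbouring pairs in this order, 12 differed by less than the larger of their SDs, and only DEAB at 4.5 h and DEAB at 3 h had ranges that did not overlap. For hoxa3.S 15 of 15 neighbouring pairs lay within the larger SD, with RA, ethanol, control and DEAB in this order at both 4.5 and 3 h. For hoxd3.L 14 of 15 did, and the exception was the step from DEAB at 4.5 h (5.63 CPM) to RA at 3 h (1.64 CPM). All 4 groups at 4.5 h lay above all 4 at 3 h for this gene, and these above all groups at the earlier times.

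After the mean of each clutch and time point was subtracted, hoxa2.S and hoxa3.S had a Pearson correlation of 0.646 over 96 libraries, hoxa2.S and hoxd3.L 0.37, and hoxa3.S and hoxd3.L 0.342. These values describe libraries that share clutches and treatments and carry counting noise that is larger for hoxa3.S and hoxd3.L. Among 14816 genes with a symbol and a mean count of at least 10, those most like hoxa2.S by this measure included dhrs3.L (0.927), LOC108697667 (0.92) and cyp26a1.L (0.912). dhrs3 reduces retinaldehyde to retinol, and cyp26a1 hydroxylates RA. Clutches had been selected for a response of genes that included cyp26a1.L.

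The response of the members can be set beside that of other hox genes at 4.5 h. In RA against DEAB edgeR called 0.724% of all genes higher. Of the hox genes it called 2 of the 3 group 1 genes reported here, 2 of 3 members and 1 of 2 group 4 genes. Of 10 genes of groups 5 to 9 it called 1. DESeq2 called 3 of 3 group 1 genes, 2 of 3 members, 1 of 2 group 4 genes and 0 of 10 of groups 5 to 9. In the same order the median log2 fold changes were 0.40, 1.05, 0.45 and 0.31. hoxa2.S (1.05) and hoxa3.S (1.14) lay above hoxb9 (0.80 ± 0.21), hoxb1.S (0.75 ± 0.16) and hoxb4.S (0.57 ± 0.11). The group 4 gene called was hoxb4.S, which was among the genes by which clutches were selected for a response to RA and DEAB. hoxd3.L (0.23) lay below the hoxd genes hoxd1.S (0.40 ± 0.09), hoxd1.L (0.36 ± 0.09) and hoxd4.L (0.33 ± 0.14). Genes of other clusters lay nearer to it, such as hoxc6.S (0.23 ± 0.09), hoxa9.S (0.27 ± 0.19) and hoxb6.S (0.18 ± 0.12). Of the hoxd genes named here edgeR called hoxd1.S alone. At 0 h hoxd1.L and hoxd1.S were called higher in RA than in DEAB, by 2.18 and 2.38, beside 2.66 for hoxa2.S, and no gene of group 4 or of groups 5 to 9 passed the filter on low counts. No test of differences between these genes was made.

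**Figure D4:**
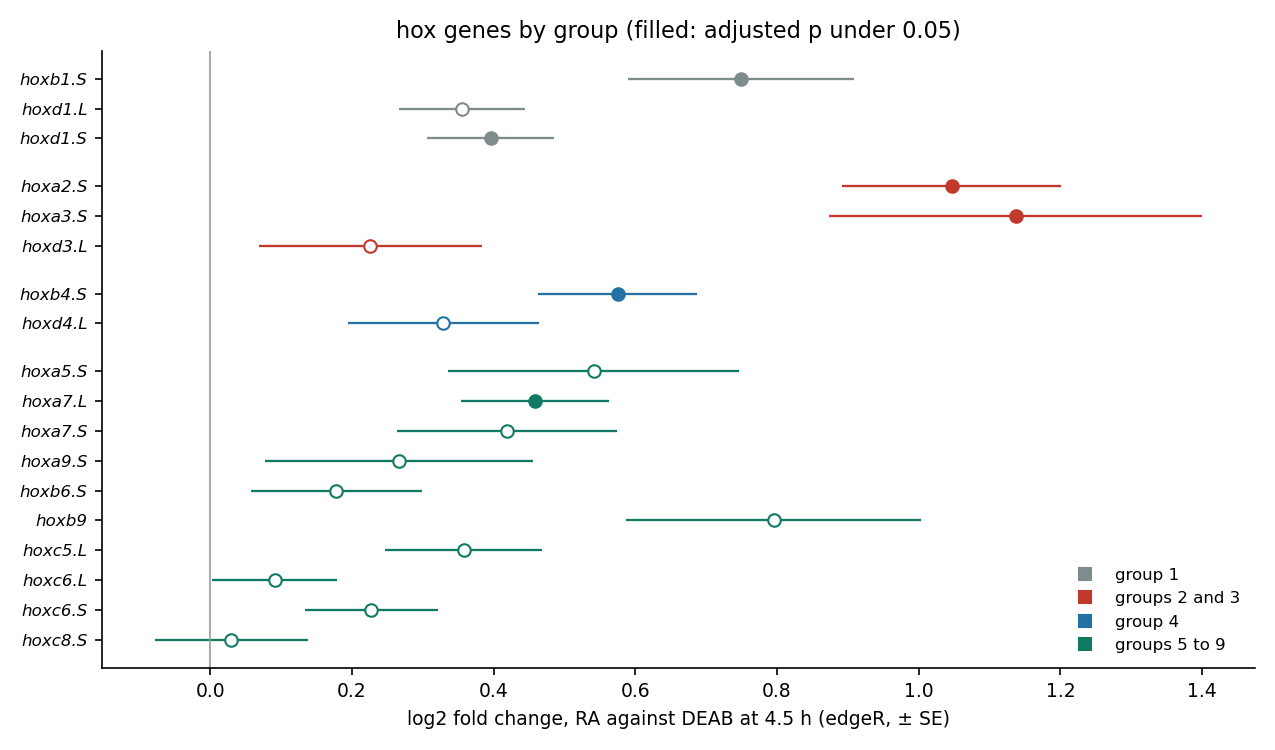
Log2 fold change of RA against DEAB at 4.5 h from edgeR (x axis, bars are ± SE) for 18 hox genes arranged by group (y axis). Filled symbols passed the threshold. hoxa2.S and hoxa3.S lie at 1.05 and 1.14 and hoxd3.L at 0.23, and all 18 values are above 0.

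Other genes of the pathway were read from lists. Of all genes, edgeR called 0.982% higher in RA than in DEAB at 1.5 h and 0.724% at 4.5 h. A list of 12 regulators of hox genes in the hindbrain and posterior neural plate included the 3 group 1 hox genes. Of these 12, edgeR called 6 higher at 1.5 h and 4 at 4.5 h, and none lower, and DESeq2 called 6 and 5. Those that edgeR called at 4.5 h were hoxb1.S, hoxd1.S, gbx2.1.L (1.08 ± 0.21) and gbx2.2.L (0.70 ± 0.13). The gbx2 genes encode transcription factors expressed at the anterior border of the hindbrain. Of 17 tested genes of RA metabolism and reception, 5 were called higher at 4.5 h. They were cyp26a1.L (0.85 ± 0.12), cyp26a1.S (0.89 ± 0.14), cyp26c1.L (1.87 ± 0.22), cyp26c1.S (1.90 ± 0.24) and dhrs3.L (1.22 ± 0.17). Of these, cyp26a1.L was among the genes by which clutches were selected for a response to RA and DEAB. The cyp26 genes encode enzymes that hydroxylate RA, and dhrs3 reduces retinaldehyde, the precursor of RA, to retinol. Of 8 genes of hox cofactors, which bind DNA together with Hox proteins, meis3.L (0.73 ± 0.09) and meis3.S (0.36 ± 0.07) were called. Of 9 anterior neural genes edgeR and DESeq2 called 0 in RA against DEAB at 4.5 h, with 0 unadjusted p under 0.05. Against control at 4.5 h edgeR called rax.L lower in DEAB (-1.25 ± 0.23, adjusted p = 0.0258), with an unadjusted p under 0.05 for 5 of the 9, and 0 in RA, with 4 of 9, where rax.L was at -1.10 ± 0.23 (adjusted p = 0.134), and DESeq2 called 0 in both. The median log2 fold change in RA against DEAB was 0.12 for the hindbrain regulators, 0.03 for the RA genes, 0.01 for the cofactors and 0.05 for the anterior neural genes.

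The reads of neighbouring genes may not be fully separated. In RefSeq annotation of a later assembly the span of hoxa3.S overlaps those of hoxa5.S, hoxa7.S and further protein-coding genes not matched to counts here. That of hoxd3.L overlaps hoxd4.L, whereas hoxa2.S overlaps no annotated gene. How reads in such overlaps and on the opposite strand were counted is not given in the sources used here. Over 96 libraries the residual correlation was 0.522 for hoxa3.S with hoxa5.S, 0.308 with hoxa7.S and 0.107 for hoxd3.L with hoxd4.L.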

How the data were processed

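RNA-seq counts per gene were deposited by the authors, who aligned HiSeq 4000 reads with STAR to the X. laevis 9.1 genome and counted them with verse, without normalization. A deposited table of log2 values held 16322 genes in the 72 libraries without ethanol, to which the authors had applied a regularized log, ComBat, a filter and quantile normalization. The submitters' notes keep ethanol out of the study's downstream analysis.

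Genes were tested with edgeR 4.0.16 in R 4.3.3 (quasi-likelihood test, TMM, filterByExpr, Benjamini-Hochberg adjustment over all genes tested, threshold 0.05) with clutch as a block, in fits of 18 libraries (control, RA and DEAB) for each time, or 12 for ethanol and control. The SE was taken as the absolute coefficient divided by the square root of its F statistic. Same-clutch libraries of a time point deviated together (144 correlations, 0.558 to 0.897), and the study took each clutch from a single female. Of 240 pairs of libraries of a group 0 were identical. The procedure was tested on simulated counts with a common dispersion and no clutch differences, so that test says nothing about the clutch block. Alternatives were DESeq2 1.42.0, limma 3.58.1, RLE scaling, no filter, no block, other sets of libraries, a prior count of 0.5 and each clutch left out. The named genes are all members, genes among the 5 most like hoxa2.S, and genes of the lists above. Some genes of these lists are not reported here and were left out of their counts. Members and lists were chosen with earlier results of these data known. RefSeq names and overlaps come from assembly 10.1, so no coordinates are given, and no sequence was used. Columns of other samples numbered 0.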

Additional observations from a re-analysis of the deposited data

Results flagged for a closer look

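In 4 of 48 groups of 6 libraries (3 genes, 4 groups, 4 times) a single library lay far from the other 5 on the log2 CPM scale. Chance gives about 1 in 20 such groups when values are independent and normally distributed. The groups here share clutches and some hold counts at or near 0, so this rate need not hold. All 4 flagged libraries concerned hoxa3.S. The control library of clutch C at 4.5 h was the lowest of its group, with its gap to the next making up 0.685 of the whole range (5 counts, 0.503 CPM against 2.46 CPM). The RA library of clutch D at 4.5 h was the highest, with a gap of 0.716 of the range (83 counts, 10.1 CPM against 4.02 CPM). The ethanol library of clutch E at 3 h was the lowest, with a gap of 0.787 of the range (2 counts, 0.169 CPM against 0.853 CPM). The DEAB library of clutch A at 0 h was the highest, with a gap of 0.671 of the range (7 counts, 0.442 CPM against 0.0892 CPM). The part of depth, stage or embryo pooling in these values was not tested.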

How the results depend on the processing

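Of 782 comparisons of a single member's edgeR result with an alternative, 749 kept the same status, called or not called. A call was lost in 26 and gained in 7, and none changed direction with a call. Results that were never called are among the 749. The hoxa2.S call was kept in 10 of 14 alternatives for RA against control at 0 h and 12 of 15 at 1.5 h. It was kept in 8 of 15 for DEAB against control at 4.5 h and in 13 of 14 for RA against DEAB at each time. The hoxa3.S call in RA against DEAB at 4.5 h was kept in 7 of 14. Without the replicate block 0 members were called in RA against control at 0 and 1.5 h, in DEAB against control at 4.5 h and in RA against DEAB at 0, 1.5, 3 and 4.5 h, with adjusted p for hoxa2.S in RA against DEAB from 0.053 to 0.317 and log2 fold changes from 1.03 to 2.68. limma on the deposited log2 values called 0 members in RA against control at 0 and 1.5 h and in DEAB against control at 4.5 h, and 1 in RA against DEAB at 4.5 h. With clutches A, D, E and F only, 1 member was called in DEAB against control at 0 h and at 3 h, and 1 in RA against DEAB at 4.5 h. Leaving out each clutch in turn gave 0 to 1 called members in RA against control at 0 and 1.5 h, in DEAB against control at 0 and 4.5 h and in the changes of RA against control and RA against DEAB from 0 to 4.5 h, and 1 to 2 in RA against DEAB at 4.5 h and in the control step from 0 to 1.5 h. All other counts of called members stayed within 1.5 times. A prior count of 0.5 moved 0 of 90 exact tests across the threshold, of which the 18 between members were added after the data were seen. Sums and differences of L and S copies were not run because a single copy carried a symbol. Depth limits hoxa3.S and hoxd3.L at 0 and 1.5 h, where most libraries held fewer than 10 counts. It also limits hoxa2.S at 0 h, where 11 of 24 libraries held 10 counts or more.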
